A study of Homo sapiens with 14 samples.

Results

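MALAT1, NEAT1, MEG3 and KCNQ1OT1 are 4 long noncoding RNAs known for staying in the nucleus. They were taken by gene symbol from a raw count table of 27142 genes and were chosen by those values, the spread of their counts within and between groups, so their levels and differences are given as a description. All 4 were among the 13371 genes that passed a filter on low counts (10 in enough libraries, 15 in all), and the table annotates 761 of the tested genes as noncoding RNA.

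The libraries came from IMR90 cells, a widely used human fibroblast line from fetal lung, wild type in every group. Cells of 2 libraries were untreated (water; their time label is 4 days, the design text says 0 h), and cells of 3 libraries at each time had 24, 48, 72 or 96 h of 20 uM 2',3'-dideoxycytidine (ddC), a nucleoside analogue that terminates mitochondrial DNA chains. The study asked how the transcriptome changes as mitochondrial DNA is lost. Polyadenylated RNA was sequenced with a stranded kit, and the submitters call the libraries of a group biological replicates.

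Long noncoding RNAs of this kind act as structural or regulatory RNAs rather than as messages. MALAT1 concentrates in nuclear speckles, the bodies rich in splicing factors. NEAT1 is the scaffold of paraspeckles, bodies that hold a set of RNA-binding proteins. MEG3 and KCNQ1OT1 are imprinted: MEG3 is made from the maternal chromosome at 14q32, and KCNQ1OT1 is made from the paternal chromosome at 11p15, antisense to KCNQ1, where it silences neighbouring genes.

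How the 4 RNAs end bears on what a poly(A) library captures, so stretches of their 3' parts are shown in DNA letters from the GENCODE v29 transcripts on GRCh38, a newer build than the hg19 of the count table. MALAT1 and the long form of NEAT1 are known to be cut at their 3' end by RNase P and to end in an A-rich stretch folded into a triple helix, without a poly(A) tail. The MALAT1 stretch (chr11:65506058-65506150, plus strand) carries its longest run of A in capitals, 359 bases from the annotated end. The NEAT1 stretch (chr11:65445421-65445540, plus strand) is the last 120 bases of the long form, with the A-rich end in capitals.
MALAT1: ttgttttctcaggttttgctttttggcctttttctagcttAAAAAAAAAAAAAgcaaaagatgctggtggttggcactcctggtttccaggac
NEAT1: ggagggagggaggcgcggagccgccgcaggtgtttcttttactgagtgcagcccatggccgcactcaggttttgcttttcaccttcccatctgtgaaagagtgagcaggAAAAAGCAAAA
The letters AAAAAGCAAAA, searched on the transcript strand, lie in the last 500 bases of both MALAT1 and NEAT1 and of neither MEG3 nor KCNQ1OT1. Of 168622 GENCODE transcripts of at least that length, 269 (0.16%) hold them there.

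MEG3 ends as a usual message does, with the poly(A) signal AATAAA, in capitals in its last 60 bases (chr14:100860967-100861026, plus strand). KCNQ1OT1 is an unspliced transcript of 91667 bases with 17 internal runs of 10 or more A. Its longest, of 29 bases, is in capitals in the stretch shown (chr11:2610677-2610785, minus strand) and lies 2389 bases from the annotated end.
MEG3: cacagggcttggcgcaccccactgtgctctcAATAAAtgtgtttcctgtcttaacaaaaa
KCNQ1OT1: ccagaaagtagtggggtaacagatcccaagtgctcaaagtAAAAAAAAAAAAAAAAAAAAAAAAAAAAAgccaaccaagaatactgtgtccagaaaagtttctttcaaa
MALAT1 has 1 run of 10 or more A, NEAT1 has 5 and MEG3 has 0. MALAT1, NEAT1 and KCNQ1OT1 each have 1 exon in these models, whereas MEG3 has 9.

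On hg19, the table places MALAT1 (NR_002819) at chr11:65265209-65273983 and NEAT1 (NR_131012) at chr11:65190269-65213009, both on the plus strand and 52200 bases apart. MEG3 (NR_003530) spans chr14:101292445-101327360 on the plus strand, and KCNQ1OT1 (NR_002728) spans chr11:2629558-2721228 on the minus strand. Per kilobase of annotated transcript, the mean level over the 14 libraries was highest for MEG3 at 77.8 CPM per kb (CPM, counts scaled to a common library total). MALAT1 had 22.7, NEAT1 had 8.54 and KCNQ1OT1 had 0.0231 CPM per kb. NEAT1 is scored over its long form, so reads of its short polyadenylated form fall in the same value.

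The depth ranged from 9398703 to 12147402 counts per library. All 8 fibroblast markers were present in every library, summing to 33840 to 44610 CPM, while CDH1 (epithelium), PECAM1 and CDH5 (endothelium) and CD3E (T cells) were at 0 throughout. Summed blood markers reached at most 0.353 CPM and the epithelial ones 6.44 CPM, nearly all of it KRT19. Opposite-strand counts, summed over 80 abundant genes with an antisense neighbour, were 0.631 to 0.732 per 1000 in 7 libraries (untreated, 24 h, and 48 h replicates 1 and 2) and 0.8 to 0.978 per 1000 in 48 h replicate 3 and all 72 h and 96 h libraries. The 2 ranges do not overlap. The gap between them, from 0.732 to 0.8, is however narrower than a gap inside the upper range. There, 72 h replicate 1 had 0.8 and the next library, 72 h replicate 2, had 0.895 per 1000. What moved these counts and the time cannot be told apart where 72 h or 96 h libraries are compared with untreated ones. The same holds for 96 h against 24 h, because the compared groups lie in different ranges.

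The 4 RNAs differed several-fold between libraries of the same group, and no ddC time stood apart from the untreated cells. MALAT1 had 95.1 and 271.1 CPM in the untreated libraries. It had 241.6, 355.5 and 52.2 CPM at 24 h, 52.1, 264.0 and 178.5 CPM at 48 h, 390.8, 409.1 and 81.5 CPM at 72 h, and 193.6, 77.3 and 122.8 CPM at 96 h. The lowest and highest libraries, 48 h replicate 1 and 72 h replicate 2, were 7.85-fold apart, and every ddC group overlapped the untreated pair.

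NEAT1 had 114.8 and 265.2 CPM in the untreated libraries. It had 239.9, 344.3 and 57.9 CPM at 24 h, 69.2, 276.4 and 173.9 CPM at 48 h, 341.9, 330.8 and 83.4 CPM at 72 h, and 194.2, 80.0 and 146.6 CPM at 96 h. Here too the third library of 24 h and of 72 h and the first of 48 h were low beside the others of their group, and the groups overlapped. Its range over the 14 libraries was 5.95-fold.

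MEG3 had 73.1 and 181.7 CPM in the untreated libraries. It had 168.0, 244.2 and 45.3 CPM at 24 h, 48.6, 192.8 and 115.0 CPM at 48 h, 275.4, 251.1 and 66 CPM at 72 h, and 148.4, 76.6 and 110.4 CPM at 96 h. The same libraries were low as for MALAT1 and NEAT1, although MEG3 comes from another chromosome, and its range was 6.08-fold.

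KCNQ1OT1 was close to the detection limit, with 5 to 58 counts per library. It had 16 and 32 counts in the untreated libraries, 19, 48 and 9 counts at 24 h, 5, 28 and 24 counts at 48 h, 58, 49 and 7 counts at 72 h, and 21, 10 and 15 counts at 96 h. As CPM it spanned 0.461 in 48 h replicate 1 to 4.78 in 72 h replicate 1, a 10.4-fold range. Counting error is large at this level: the exact Poisson 95% interval of the 5 counts starts at 1.62, and such intervals cover counting error only. Its high and low libraries were nevertheless those of the other RNAs.

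**Figure D1:**
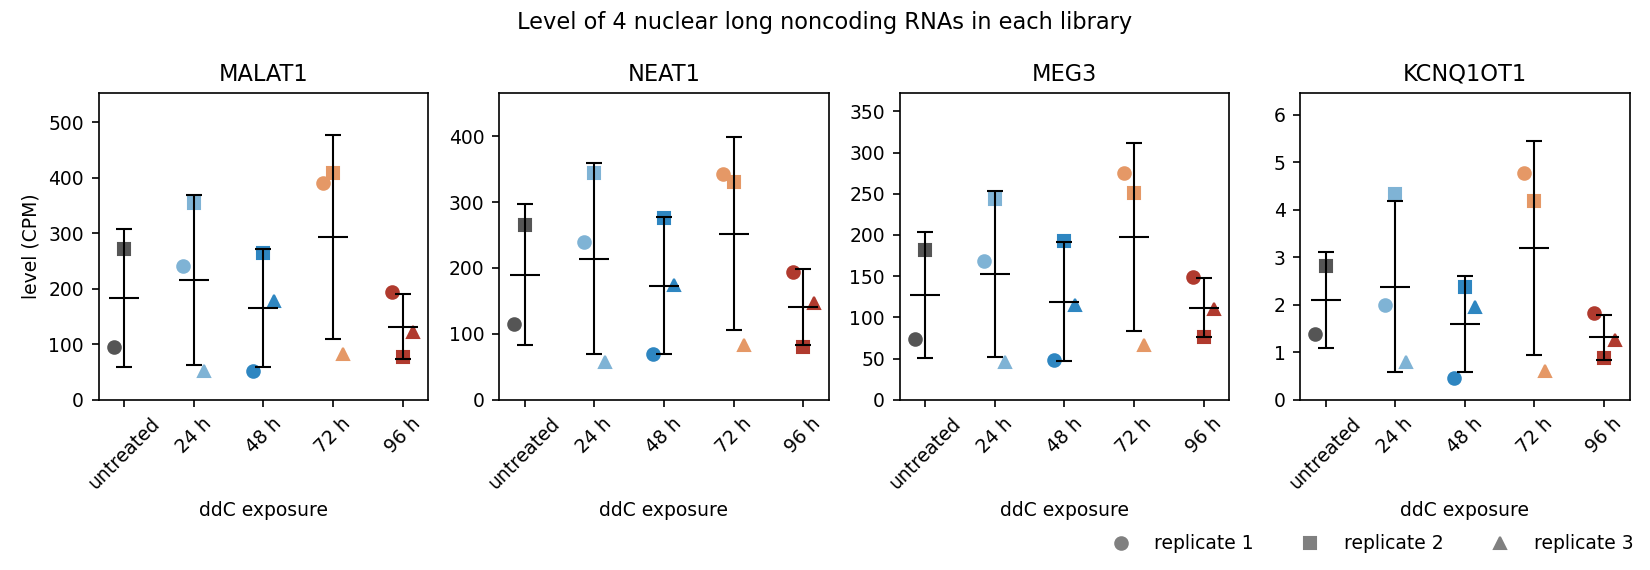
Level in CPM (vertical axis, linear from 0) of MALAT1, NEAT1, MEG3 and KCNQ1OT1 in each of 14 libraries, by ddC exposure; marker shape gives the replicate number, the long bar the group mean and the capped line 1 SD (n = 2 untreated, 3 at each time). In each panel the 24 h and 72 h groups hold both high and low libraries, as with MALAT1 at 355.5 and 52.2 CPM at 24 h, and every group overlaps the untreated libraries.

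As group values, MALAT1 averaged 183.1 ± 124.5 CPM in untreated cells (SD, n = 2), 216.4 ± 153.2 at 24 h, 164.8 ± 106.6 at 48 h, 293.8 ± 184.1 at 72 h and 131.2 ± 58.6 at 96 h (SD, n = 3 each). NEAT1 averaged 190.0 ± 106.4 CPM untreated, 214.0 ± 145.0 at 24 h, 173.2 ± 103.6 at 48 h, 252.0 ± 146.1 at 72 h and 140.3 ± 57.4 at 96 h. The order of the group means was the same for both, with 72 h on top and 96 h at the bottom, but each neighbouring pair of means in that order lay closer than the SD of either group.

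MEG3 averaged 127.4 ± 76.8 CPM untreated, 152.5 ± 100.3 at 24 h, 118.8 ± 72.2 at 48 h, 197.5 ± 114.5 at 72 h and 111.8 ± 35.9 at 96 h. KCNQ1OT1 averaged 2.10 ± 1.01 CPM untreated, 2.37 ± 1.8 at 24 h, 1.59 ± 1.01 at 48 h, 3.19 ± 2.25 at 72 h and 1.32 ± 0.475 at 96 h. The spread within each group again exceeded the steps between neighbouring means. In RNA from whole cultures, fewer cells of a type and less RNA per cell cannot be told apart.

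In the fit over all genes and libraries (edgeR quasi-likelihood, 1 mean per group), the differences from untreated cells were smaller than their standard errors for all 4 RNAs at all 4 times. MALAT1 differed by 0.24 ± 0.97 on the log2 scale at 24 h (fold change ± SE, ddC over untreated), by -0.15 ± 0.97 at 48 h, by 0.68 ± 0.98 at 72 h and by -0.48 ± 0.97 at 96 h. NEAT1 differed by 0.17 ± 0.87, -0.13 ± 0.87, 0.41 ± 0.87 and -0.44 ± 0.87 at 24, 48, 72 and 96 h. MEG3 differed by 0.26 ± 0.84, -0.10 ± 0.84, 0.63 ± 0.85 and -0.19 ± 0.84 at the same times, and KCNQ1OT1 by 0.18 ± 0.88, -0.37 ± 0.92, 0.61 ± 0.84 and -0.67 ± 0.96. These comparisons share the untreated pair, whose second library was the higher one for each RNA.

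Between 96 h and 24 h of ddC, MALAT1 differed by -0.72 ± 0.87, NEAT1 by -0.61 ± 0.78, MEG3 by -0.45 ± 0.76 and KCNQ1OT1 by -0.85 ± 0.86 (log2, 96 h over 24 h). The median SE of all tested genes was 0.108 for 96 h against untreated cells, much smaller than the SE of these RNAs. For MALAT1, NEAT1 and MEG3 the wide SE reflects spread between libraries, since their counting error was far smaller. Of the 4, 0 passed an adjusted p of 0.05 in any of the 5 comparisons, and 0 had groups that did not overlap. Groups did not overlap for 15.9% of all tested genes at 24 h, 23.7% at 48 h, 24.2% at 72 h, 40.3% at 96 h and 19% between 96 h and 24 h. Over all tested genes, 0.0% passed at 24 h, where 457 of them had an unadjusted p under 0.05. The share was 0.00748% at 48 h, 0.179% at 72 h, 5.68% at 96 h and 3.2% between 96 h and 24 h. Since the members were chosen with these contrasts in view, nothing is read from the count.

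**Figure D2:**
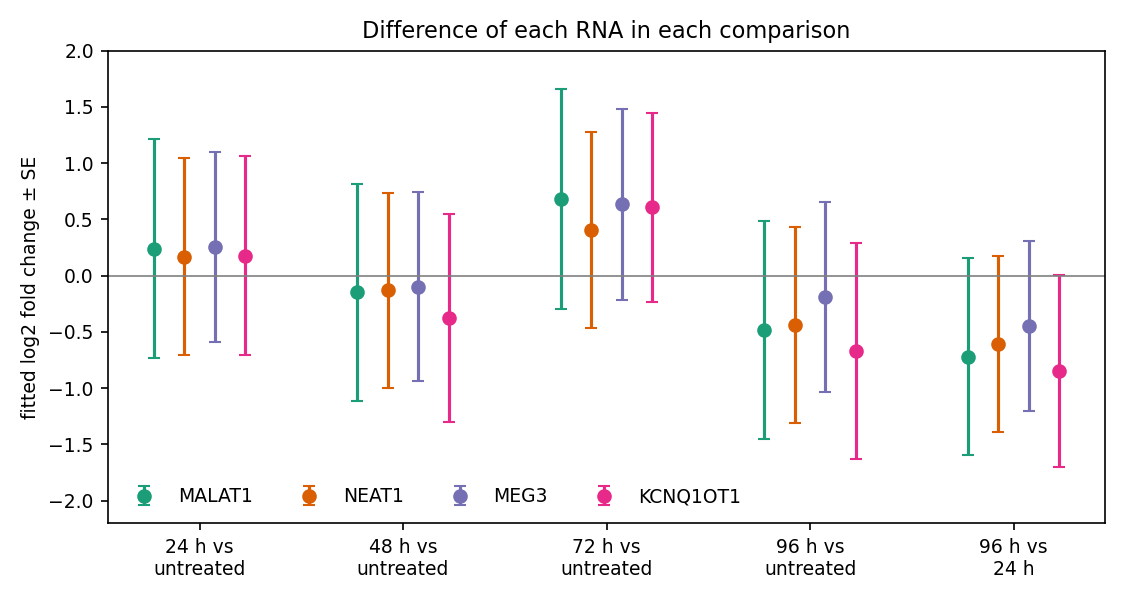
Fitted log2 fold change (vertical axis; point) with 1 SE (capped line) of MALAT1, NEAT1, MEG3 and KCNQ1OT1 in 5 comparisons of ddC times with untreated cells or with 24 h. Every line for a comparison with untreated cells crosses 0, and the 4 RNAs take similar values within a comparison, as at 72 h with 0.68 for MALAT1 and 0.61 for KCNQ1OT1.

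Leaving out a single library moved some of these differences across 0. Without untreated replicate 2, the 96 h difference of MALAT1 was 0.46 and that of MEG3 was 0.61. Without untreated replicate 1, they were -1.05 and -0.70. MALAT1 at 24 h had a difference of -0.33 when 24 h replicate 2 was left out, but of 1.19 when untreated replicate 2 was.

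Most of the variation lay within groups. Differences between groups made up 10.9% of the variation of MALAT1 on the log2 scale, 7.2% for NEAT1, 8.75% for MEG3 and 13.0% for KCNQ1OT1. The median over all tested genes was 33.7%. With so few libraries in a group, such a share is sizeable even where groups do not differ, so it does not measure an effect of ddC. Without 72 h replicate 3 the shares were 30.5% for MALAT1, 25.0% for NEAT1, 29.1% for MEG3 and 42.1% for KCNQ1OT1, and without 24 h replicate 3 they were 22.7% to 25.1%. Without 72 h replicate 1 or 2 they were 2.17% to 8.33%. The within-group SD was 1.19 log2 units for MALAT1, 1.06 for NEAT1, 1.01 for MEG3 and 1.06 for KCNQ1OT1, against a median of 0.119. Of the 13371 tested genes, 5 had a larger within-group SD than MALAT1 and 19 had a larger one than NEAT1. The counts were 27 for MEG3 and 18 for KCNQ1OT1. The members were chosen with this spread in view. These ranks, and those among genes of similar level below, are therefore a description.

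Genes at a similar level did not share this spread. Among 878 genes whose mean was within 0.5 log2 units of that of MALAT1, 0 had a larger within-group SD, and their median was 0.0727. For NEAT1 the count was 2 of 899 genes, for MEG3 2 of 1259 and for KCNQ1OT1 3 of 859. Near KCNQ1OT1 the median SD was 0.308, higher than for the abundant RNAs, and its own SD of 1.06 was still well above it.

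The 4 RNAs went up and down together across the libraries. Over the 14 libraries, Pearson r between log2 CPM values was 0.992 for MALAT1 and NEAT1 (Spearman rho 0.974), 0.991 for MALAT1 and MEG3 (0.974) and 0.987 for NEAT1 and MEG3 (0.974). KCNQ1OT1 followed with r of 0.962 to MALAT1, 0.953 to NEAT1 and 0.951 to MEG3. Taken about the group means, r was 0.995 for each pair of the abundant RNAs and 0.957 to 0.965 for the pairs with KCNQ1OT1. The values of a library share its depth and scaling, and no test was made of these 6 relations.

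The 2 libraries farthest from the median were 24 h replicate 3 and 48 h replicate 1. Without them r stayed between 0.948 and 0.989 over 12 libraries. Untreated replicate 2, 24 h replicates 1 and 2, 48 h replicate 2 and 72 h replicates 1 and 2 held the top 6 ranks for every one of the 4 RNAs. MALAT1 itself ranged 7.85-fold, while its ratio to NEAT1 ranged 1.64-fold, from 0.754 to 1.24.

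Proportions between the RNAs were much alike in the groups. NEAT1 over MALAT1 was 1.09 ± 0.162 in untreated cells (SD, n = 2), 1.02 ± 0.0746 at 24 h, 1.12 ± 0.186 at 48 h, 0.902 ± 0.11 at 72 h and 1.08 ± 0.102 at 96 h (n = 3 each). MEG3 over MALAT1 was 0.719 ± 0.0694, 0.75 ± 0.102, 0.769 ± 0.148, 0.709 ± 0.0979 and 0.885 ± 0.113 in the same order, and the 96 h value, from 0.767 to 0.991, overlapped all other groups. KCNQ1OT1 amounted to 0.745% to 1.52% of MALAT1 in CPM.

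For what follows, the level of the 4 RNAs in a library is the mean of their log2 CPM values after centring each on its mean. It was lowest in 48 h replicate 1 (-1.44), 24 h replicate 3 (-1.37), 72 h replicate 3 (-1.03) and 96 h replicate 2 (-0.90). It was highest in 72 h replicate 1 (1.23), 72 h replicate 2 (1.15) and 24 h replicate 2 (1.12). Per log2 unit of this level, MALAT1 moved by 1.12, NEAT1 by 0.966, MEG3 by 0.933 and KCNQ1OT1 by 0.986 log2 units. Together the RNAs took 0.0159% of the counts in 24 h replicate 3 and 0.102% in 72 h replicate 1.

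The genes most like each RNA, by Pearson r over the 14 libraries among genes with a mean log2 CPM of at least 3, included CCNL2 and OGT for MALAT1, NEAT1 and MEG3, whereas KCNQ1OT1 had 4 others. CCNL2, a cyclin L that takes part in splicing control, ranked within the nearest 4 of MALAT1 (r = 0.991), NEAT1 (0.990) and MEG3 (0.993). OGT, the enzyme that attaches O-linked N-acetylglucosamine to nuclear and cytoplasmic proteins, did so as well (0.992, 0.989 and 0.992). PABPC1L, a poly(A)-binding protein, was near MALAT1 (0.991) and MEG3 (0.990). The other near neighbours were MIR34AHG, the host transcript of miR-34a, for MALAT1 (0.993), LENG8 and PGGHG for NEAT1 (both 0.987) and MIR22HG, the host transcript of miR-22, for MEG3 (0.989).

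KCNQ1OT1 had PNISR, an SR-related protein (0.979), DMTF1, a cyclin D-binding transcription factor (0.973), NKTR, a cyclophilin-related protein with an RS domain (0.973), and the RNA helicase DDX17 (0.970). With the mean level of the 4 RNAs, the nearest were CCNL2 at r = 0.996 and OGT at 0.995. CCNL2 ranged from 62.4 to 229 CPM, a 3.68-fold span, and OGT from 53.0 to 133 CPM, a 2.51-fold span, both narrower than the span of MALAT1. Per log2 unit of the level they moved by 0.695 and 0.484, less than the 4 RNAs. MIR34AHG moved by 1.02 with a range of 3.32 to 24.3 CPM and PABPC1L by 0.951 with a range of 3.71 to 25.4 CPM, as steeply as the 4 RNAs. These genes were named for their likeness, so their r is a description.

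**Figure D3:**
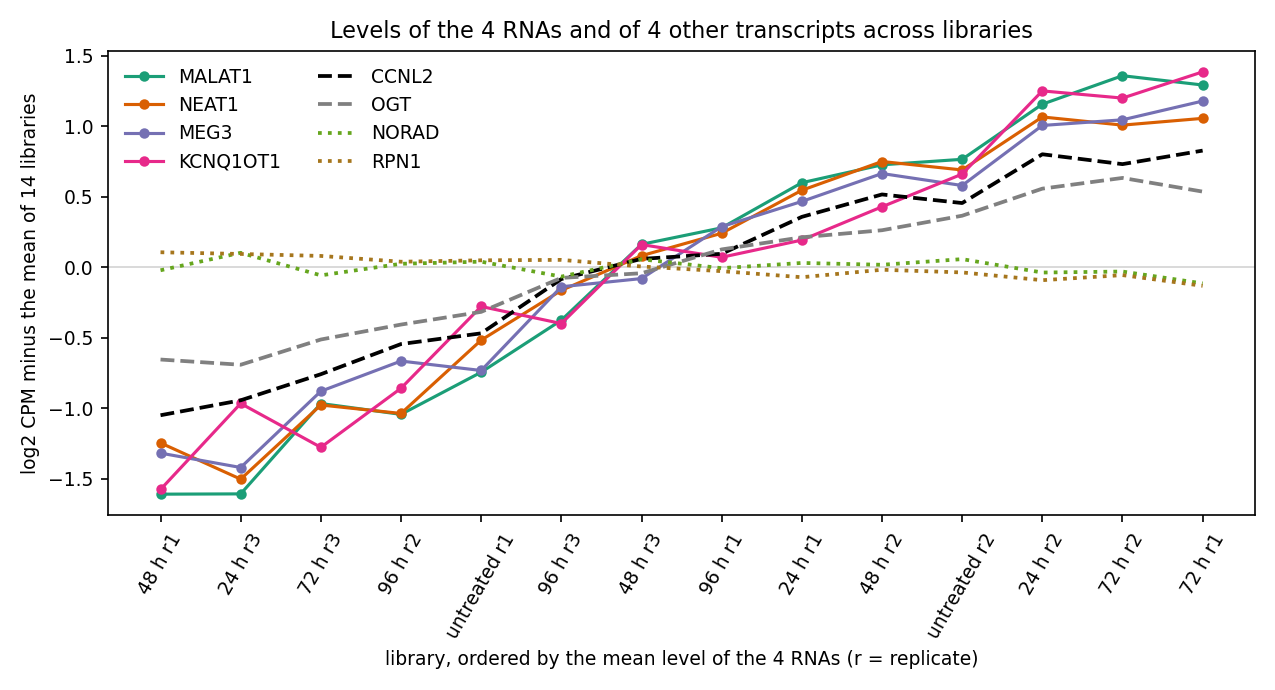
Log2 CPM minus the mean of 14 libraries (vertical axis) for the 4 RNAs (solid lines), CCNL2 and OGT (dashed) and NORAD and RPN1 (dotted), with the libraries ordered by the mean level of the 4 RNAs. The solid lines rise together from 48 h replicate 1 (mean -1.44) to 72 h replicate 1 (mean 1.23), CCNL2 and OGT follow with a smaller slope (0.695 and 0.484), and libraries of every group are spread along the axis.

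How widely this pattern was shared was described with lists of genes by role. The lists were chosen with earlier results of these data known, so their shares are a description. Of all other tested genes, 846 of 13367 (6.33%) had r of at least 0.8 with the level of the 4 RNAs, and 255 (1.91%) had r of -0.8 or less, with a median of -0.065. Among transcripts known to keep detained introns in the nucleus, 20 of 24 (83.3%) reached 0.8, with a median of 0.938. Beside CCNL2, OGT and PNISR they held GOLGA8B (0.983), DDX17 (0.980), NKTR (0.979), LUC7L3 (0.978) and the splicing regulator RBM5 (0.967). The exceptions were ANKRD10 (0.692), RSRC2 (0.503), SRSF7 (0.076) and NUTM2A-AS1 (0.020). CCNL2, OGT, PNISR, NKTR and DDX17 of this list are the same genes that were named above for their likeness.

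Taken about the group means, 1374 of the 13367 other genes had r of at least 0.8 (median -0.077). By that measure there were 21 of 24 detained-intron transcripts (median 0.961), 17 of 30 speckle and SR protein genes (0.833), 9 of 16 other nuclear long noncoding RNAs (0.854) and 7 of 31 paraspeckle protein genes (0.159). Among cytoplasmic long noncoding RNAs there were 3 of 16 (0.265), among chromatin genes 2 of 12 (0.439). Among genes of 3' processing and decay there were 2 of 33 (-0.283). There was 1 each among genes of the imprinted regions and tested RNAs listed as without a tail. The counts over all libraries follow.

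Other nuclear long noncoding RNAs were mixed. Of 16 tested, 6 (37.5%) reached 0.8 and the median was 0.773. They were MIR22HG (0.984), MEG9 (0.968), LINC-PINT (0.938), TUG1 (0.893), MIR17HG (0.855) and HOTAIRM1 (0.839). TUG1, the most abundant of the list, kept within 202 to 280 CPM despite its high r, whereas MEG9, from the same 14q32 cluster as MEG3, ranged from 1.11 to 9.85 CPM. MIR100HG had r = 0.772 over 97.0 to 139 CPM, and TP53TG1 and FENDRR had r of -0.338 and 0.083.

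Mainly cytoplasmic long noncoding RNAs had a median r of 0.134, with 3 of 16 (18.8%) at 0.8 or more. Those were SNHG12 (0.938), SNHG1 (0.884) and GAS5 (0.880), hosts of small nucleolar RNAs. Other such hosts on the list lay lower, among them SNHG5 (0.574), SNHG8 (0.034), SNHG6 (-0.448) and SNHG16 (-0.550). NORAD, the most abundant, had r = -0.320 and stayed within 252 to 293 CPM. Of 757 tested genes annotated as noncoding RNA, 9.11% reached 0.8, against 5.84% of 12261 protein-coding genes and 13.9% of 295 pseudogenes.

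Among the proteins of nuclear speckles and of the SR family, 12 of 30 (40%) reached 0.8, with a median of 0.726. SRRM2, a speckle scaffold protein, ranged from 343 to 696 CPM with r = 0.925, and CLK2, a kinase of SR proteins, had r = 0.965. SRSF9 went the other way at r = -0.859, and SRSF1 had r = 0.067. This list shares CLK1, CLK4, LUC7L3, SRSF5 and SRSF7 with the detained-intron list and SRSF10 with the paraspeckle list. Among the other lists, NUTM2A-AS1, PABPN1, RBM7, MEG8 and MEG9 also repeat, so the shares of the lists are not independent.

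For paraspeckle proteins, which bind NEAT1, 4 of 31 (12.9%) reached 0.8 and the median was 0.164. The core proteins SFPQ, NONO and PSPC1 had r of 0.336, -0.250 and -0.259 with the level of the 4 RNAs. About the group means their r was 0.743, -0.80 and -0.157. CIRBP, a cold-inducible RNA-binding protein, had r = 0.975, and its relative RBM3 had -0.884. Genes of 3' processing and nuclear RNA decay had 2 of 33 (6.06%) at 0.8, namely ZFC3H1 (0.972), a part of the nuclear exosome targeting machinery, and PABPN1 (0.867), the nuclear poly(A)-binding protein, with a median of -0.152.

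Polycomb and chromatin factors had 1 of 12 (8.33%), EZH1 at 0.962, beside its paralogue EZH2 at 0.50. Genes listed for the imprinted regions of MEG3 and KCNQ1OT1 had 1 of 9 (11.1%), MEG9, with a median of -0.320, and MEG8 at 0.639. Of 78 RNAs in the count table listed as without a poly(A) tail, only 11 passed the filter on low counts. Of these, 1 (9.09%) reached 0.8, SNORA73B at 0.909, with a median of -0.186. In a poly(A) library the 11 need not stand for untailed RNAs, and which form their reads came from was not tested. Of the histone messages, most of which lack a tail, HIST1H2BK had r = -0.466 and HIST2H2BE had r = -0.197.

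**Figure D4:**
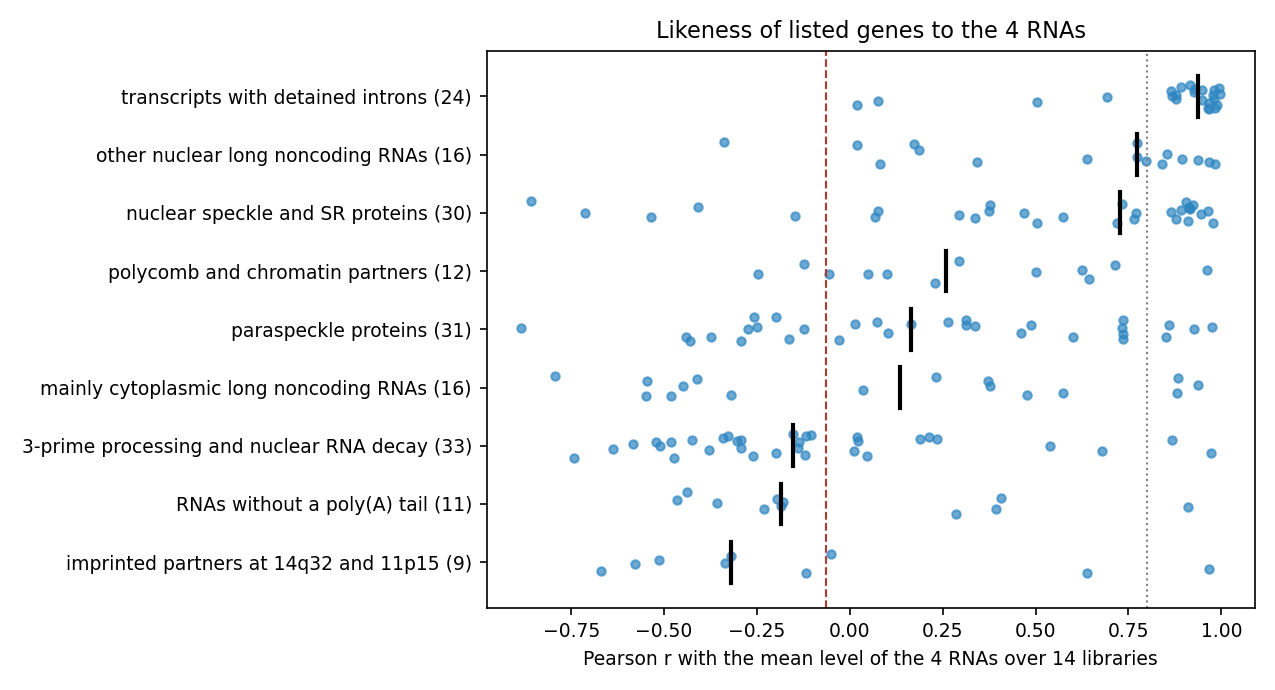
Pearson r of each listed gene (point) with the mean level of the 4 RNAs over 14 libraries (horizontal axis), by list with the number tested; vertical bars are list medians, the dashed line the median of all other tested genes (-0.065) and the dotted line 0.8. Transcripts with detained introns gather at the right (median 0.938), while cytoplasmic RNAs, paraspeckle proteins and the list of imprinted partners spread over both sides. The lists were chosen with earlier results of these data known.

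The 4 RNAs were also set beside their neighbours on the chromosome. FRMD8, upstream of NEAT1, had r = 0.281 with the level of the 4 RNAs and kept within 27.7 to 37.8 CPM. NEAT1 and MALAT1 themselves are annotated neighbours. MASCRNA, the small RNA cut from the MALAT1 end, had 0 to 4 counts.

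KCNQ1, which overlaps KCNQ1OT1 on the opposite strand, had 0 to 1 counts per library. KCNQ1-AS1 and TRPM5, the nearest genes to either side, were at 0, as were MIR2392 and MIR493 beside MEG3. MIR770 within MEG3 and MIR612 within NEAT1 had at most 3 counts. Whether the counting used strand is not given in the sources used here, so reads of KCNQ1OT1 and of unspliced KCNQ1 cannot be told apart.

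Among library measures, the level of the 4 RNAs did not follow depth (r = 0.069 with total counts). It followed the number of genes with a count (r = 0.728, 0.543 without the 2 farthest libraries), which ranged from 15975 to 16387. It ran against the share of counts on 79 cytosolic ribosomal protein genes, a list added after the data were seen (r = -0.857, rho = -0.833, and -0.773 without the 2 farthest), which ranged from 1.93% to 2.17%. The opposite-strand counts did not line up with it: 24 h replicate 3 (0.631 per 1000) and 72 h replicate 3 (0.925 per 1000) both had low levels of the 4 RNAs. The summed fibroblast markers (r = -0.023) and epithelial markers (r = -0.159) did not follow it either. The part of these measures in the pattern was not tested.

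**Figure D5:**
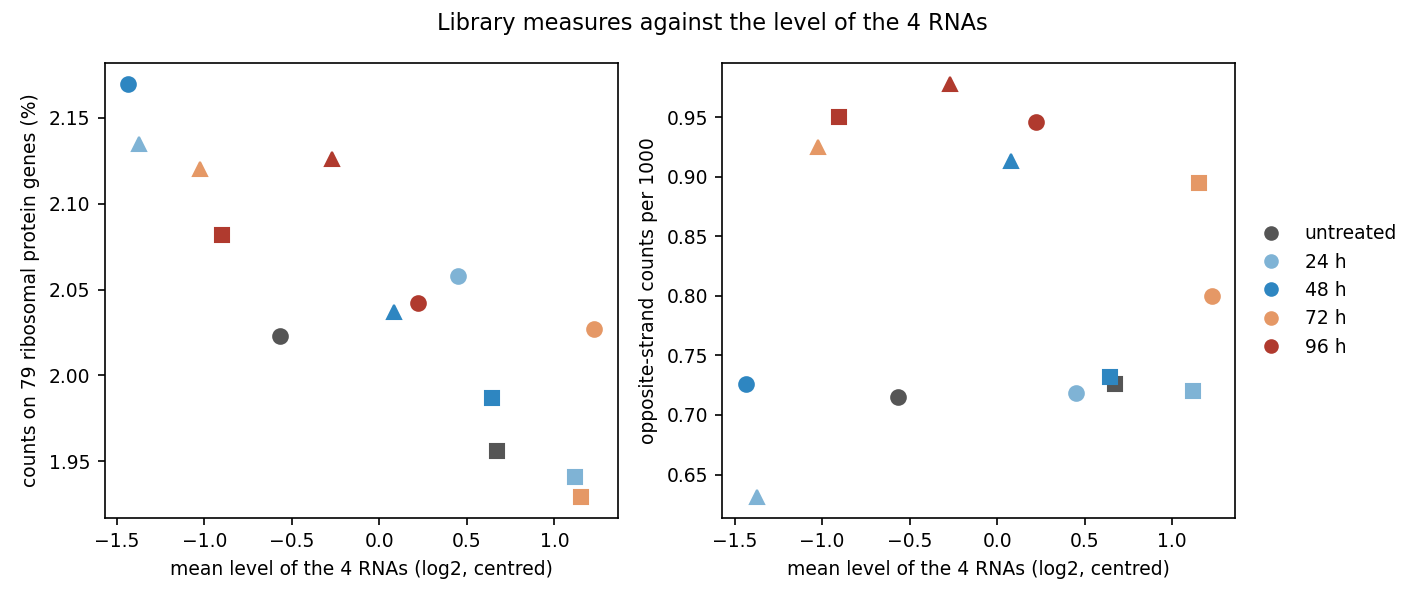
Share of counts on 79 ribosomal protein genes (left, %) and opposite-strand counts per 1000 (right) against the centred mean log2 level of the 4 RNAs (horizontal axes), with 1 point per library, coloured by ddC exposure and shaped by replicate number as for the levels by library. The ribosomal protein share falls across the axis from 2.17% in 48 h replicate 1 to 1.93% in 72 h replicate 2. Opposite-strand counts of 0.631 and 0.925 per 1000, in 24 h and 72 h replicate 3, both lie at low levels of the 4 RNAs.

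The genes of the 9 lists were tested in the same fit, and those that passed did so at 96 h. At 24, 48 and 72 h, 0 genes of the 9 lists passed against untreated cells, where the median log2 fold change of a list lay between -0.122 and 0.154. At 96 h, 477 of all tested genes (3.57%) were higher and 282 (2.11%) lower. With libraries scaled by total count alone the split was 367 higher and 499 lower. The list genes named here as passing at 96 h against untreated cells did so under either scaling.

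Of 31 paraspeckle protein genes, 7 (22.6%) fell at 96 h and 0 rose. SFPQ, which NEAT1 binds to build paraspeckles, averaged 336.5 ± 5.5 CPM at 96 h (SD, n = 3) and 409.9 ± 12.4 CPM in untreated cells (SD, n = 2), a log2 fold change of -0.28 ± 0.06 (edgeR adjusted p = 0.00353). RBM12 fell by 0.26 (edgeR adjusted p = 0.0143), and HNRNPR, MATR3, HNRNPH3 and CPSF7 fell by 0.19 to 0.26. CPSF7 did not pass with limma-voom or with a replicate block, and MATR3 and HNRNPH3 did not pass without the filter on low counts. HNRNPUL1, the most abundant of the list, averaged 423 CPM at 96 h and 455 CPM in untreated cells (adjusted p = 0.300). The median of the list was -0.147, beside -0.004 over all tested genes.

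These calls rested on single libraries. Without untreated replicate 2, 0 paraspeckle protein genes passed, without untreated replicate 1 or 96 h replicate 3 there were 2, and without 96 h replicate 1 there were 3. A lone untreated library is then assumed to vary like the other groups. With the level of the 4 RNAs as a covariate, an alternative chosen after seeing the data, 12 passed. In a fit of only the compared groups 11 did. Over all genes tested, those fits passed 1848 and 1646 genes at 96 h, against 759 in the main fit. The covariate is made from the values by which the 4 RNAs were chosen, so its counts are a description.

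Of 30 nuclear speckle and SR protein genes, 3 (10.0%) fell at 96 h and 0 rose. SRSF1 averaged 349.2 ± 8.2 CPM at 96 h and 421.5 ± 4.4 CPM in untreated cells (-0.27 ± 0.05, adjusted p = 0.00423). SRSF7 averaged 115.1 ± 3.0 CPM at 96 h and 139.2 ± 0.3 CPM in untreated cells (adjusted p = 0.00501), and SRSF2 fell by 0.26 (adjusted p = 0.0213). SRRM2, which follows the 4 RNAs, averaged 391.6 ± 60.5 CPM at 96 h and 553.0 ± 118.6 CPM in untreated cells and did not pass (adjusted p = 0.472). The median of the list was -0.185. The calls of SRSF1, SRSF7 and SRSF2 were lost without either untreated library. With the level of the 4 RNAs as a covariate 13 of the list passed, and in a fit of only the compared groups 11 did. The count over all genes also rose in those fits, from 759 to 1848 and 1646.

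Of 33 genes of 3' processing and nuclear RNA decay, 5 (15.2%) fell at 96 h and 0 rose. ELAC2, the RNase Z that trims tRNA 3' ends and the small RNA cut from MALAT1, averaged 62.6 ± 1.9 CPM at 96 h and 78.7 ± 0.7 CPM in untreated cells (-0.33 ± 0.06, adjusted p = 0.00215), and its call held without any single library. The exosome subunit EXOSC9 fell by 0.31 (adjusted p = 0.00692). METTL16, a methyltransferase that binds the MALAT1 triple helix, fell by 0.35 (adjusted p = 0.012). POP1, a protein subunit of RNase P, fell by 0.41 (adjusted p = 0.024), and the nuclear exonuclease XRN2 fell by 0.23 (adjusted p = 0.028). Without either untreated library 1 gene of the list passed, without 96 h replicate 1 there were 2 and without 96 h replicate 3 there were 3. With the level of the 4 RNAs as a covariate 8 passed, where 1848 of all tested genes did, against 759 in the main fit. PAPOLA, the poly(A) polymerase, had 182.8 CPM at 96 h and 209.0 CPM in untreated cells (adjusted p = 0.0745).

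Of 12 polycomb and chromatin genes, 3 (25.0%) fell at 96 h and 0 rose. EZH2, the catalytic subunit of polycomb complex PRC2, averaged 42.1 ± 1.0 CPM at 96 h and 57.2 ± 5.3 CPM in untreated cells (-0.44 ± 0.09, adjusted p = 0.00322). CTCF fell by 0.28 (adjusted p = 0.0114) and HNRNPU, a nuclear matrix protein that tethers RNA to chromatin, fell by 0.22 (adjusted p = 0.0158). DNMT1 had 163.3 CPM at 96 h and 214.4 CPM in untreated cells (adjusted p = 0.0602). Without untreated replicate 2, 0 genes of this list passed, without untreated replicate 1 there was 1, and without 24 h or 72 h replicate 3 there were 5. Scaling by total count and a fit of only the compared groups each gave 5. The covariate gave 6, of which 5 were lower and 1 higher at 96 h. Over all genes tested, those fits passed 866, 1646 and 1848 genes in that order, against 759 in the main fit.

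Among 9 tested genes listed for the imprinted regions of MEG3 and KCNQ1OT1, 1 (11.1%) rose at 96 h and 0 fell. Whether each is imprinted in these cells was not tested. The gene that rose was IGF2, a fetal growth factor at 11p15. It averaged 159.7 ± 4.1 CPM at 96 h and 111.2 ± 1.3 CPM in untreated cells (0.52 ± 0.09, edgeR adjusted p = 0.000854), also without any single library. Without 24 h or 72 h replicate 3 the list had 2 genes that passed, as with DESeq2 and with the covariate. In a fit of only the compared groups it had 3. Over all genes tested, the DESeq2, covariate and compared-groups fits passed 757, 1848 and 1646 genes. CD81 and NAP1L4, the most abundant of the list, did not pass, with CD81 at 476.6 CPM at 96 h and 411.9 CPM in untreated cells (adjusted p = 0.0697). CDKN1C, which KCNQ1OT1 is known to silence on the paternal chromosome, had 3.29 ± 0.53 CPM at 96 h and 2.84 ± 0.22 CPM in untreated cells (adjusted p = 0.668).

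Of the other 16 nuclear long noncoding RNAs, 1 fell at 96 h. FENDRR, a lung mesenchyme RNA, averaged 94.8 ± 4.1 CPM at 96 h and 113.5 ± 0.9 CPM in untreated cells (-0.26 ± 0.07, adjusted p = 0.0254), a call lost without either untreated library or without 96 h replicate 1 or 3. TUG1 had 238.9 CPM at 96 h and 255.6 CPM in untreated cells (adjusted p = 0.705), and MIR100HG had 126.4 CPM at 96 h and 117.9 CPM in untreated cells (adjusted p = 0.681). Of 24 detained-intron transcripts, 1 passed, SRSF7, which is also in the SR list. Of the 16 cytoplasmic RNAs and the 11 tested RNAs listed as without a tail, 0 passed by edgeR.

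Comparing 96 h with 24 h of ddC leaves out the means of the untreated pair, which still enters the shared estimate of spread. The comparison does cross the opposite-strand sets. In it, 345 genes (2.58%) were higher and 83 (0.621%) lower at 96 h, or 224 and 208 with scaling by total count. SFPQ fell by 0.22 (adjusted p = 0.0142). SRSF1, SRSF7, ELAC2, EZH2, CTCF and FENDRR also fell, and IGF2 rose by 0.51 (adjusted p = 0.00047). The calls of FENDRR (-0.30, adjusted p = 0.00634) and IGF2 held without any single library here. The other calls named were each lost without at least 1 library, that of CTCF without 12 of the 14, and those of SRSF1, SRSF7 and CTCF also without the filter on low counts. In a fit of only the compared groups the calls of ELAC2, SRSF1, SRSF7 and CTCF were lost, and that of CTCF also with DESeq2 and with a replicate block. MALAT1, NEAT1, MEG3 and KCNQ1OT1 differed between these times by less than their own standard errors.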

How the data were processed

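Raw counts per gene were deposited by the authors for 14 libraries in 1 table. Per the submitters' processing notes, STAR 2.5.3a, HOMER and the hg19 build were used; the counting settings are not given in the sources used here. Libraries were prepared with a stranded poly(A) kit, per the labels' protocols. Symbols were read from the table's annotation column, and transcript lengths are those of the table. The members and the gene lists were chosen with earlier results of these data known.

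Counts were scaled by TMM and tested with edgeR 4.0.16 (quasi-likelihood, robust, 1 mean per group, all 14 libraries; filter of 10 counts in enough libraries and 15 in all; Benjamini-Hochberg adjusted p under 0.05, two-sided, over 13371 genes), in R 4.3.3. SE is the log2 fold change over the root of its F value. Log2 CPM used a prior count of 2. The procedure was tested on simulated data. Named genes were the members, the 4 genes most like each, the neighbours, and of each list up to 3 that passed (smallest p first) and the 2 most abundant; other list genes were named after their values were seen, and some genes under this rule are not reported here. Alternatives were DESeq2 1.42.0, limma 3.58.1 (voom), other scalings, no filter, a replicate block, fits of the compared groups alone, each library left out, and, chosen after seeing the data, the level of the 4 RNAs as a covariate. No 2 libraries of a group agreed within sampling noise (chi-square per degree of freedom 1.68 to 10.9). Total counts of 9398703 to 12147402 per library put the counting error of the 3 abundant RNAs far below the differences between libraries; for KCNQ1OT1, with 5 to 58 counts, it is large.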

Additional observations from a re-analysis of the deposited data

How the results depend on the processing

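Single libraries set the sign of many differences of the 4 RNAs. Leaving out each library in turn gave log2 fold changes of MALAT1 from -0.33 to 1.19 at 24 h, -0.72 to 0.80 at 48 h, 0.12 to 1.63 at 72 h, -1.05 to 0.46 at 96 h and -1.19 to -0.15 between 96 h and 24 h. For NEAT1 the ranges were -0.36 to 0.90, -0.64 to 0.60, -0.08 to 1.14, -0.92 to 0.29 and -1.06 to -0.08. For MEG3 they were -0.27 to 1.06, -0.63 to 0.70, 0.12 to 1.44, -0.70 to 0.61 and -0.89 to 0.08, and for KCNQ1OT1 -0.63 to 0.77, -0.80 to 0.22, 0.18 to 1.20, -1.10 to -0.08 and -1.29 to -0.04. The between-group share of variation ranged from 4.24% to 30.5% for MALAT1, 3.1% to 25.0% for NEAT1, 2.17% to 29.1% for MEG3 and 8.3% to 42.1% for KCNQ1OT1.

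The count of all genes passing was 0 to 1 at 24 h, 0 to 2 at 48 h, 1 to 35 at 72 h, 174 to 1034 at 96 h and 223 to 545 between 96 h and 24 h without 1 library; untreated replicate 2 gave the lowest count at 72 h and 96 h. At 24 h, DESeq2, no filter and the added covariate each gave 1. At 48 h the count was 1, or 2 with total count scaling, 3 with no filter, 0 with limma-voom and 34 with the covariate. At 72 h it was 24, or 47 with no filter, 7 with only the compared groups, 54 with DESeq2 and 243 with the covariate. At 96 h it was 759, or 1646 with only the compared groups and 1848 with the covariate, and between 96 h and 24 h it was 428, or 1087 with the covariate. The cause was not tested.

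The replicate number as a block gave 0, 1, 25, 687 and 478 genes in the 5 comparisons and put MALAT1 at 0.45, 0.31, 0.94, 0.06 and -0.39. Over 26 same-numbered pairs, r between the deviations from group means ran from -0.35 to 0.601 (median -0.033). Over 52 pairs with different numbers it ran from -0.482 to 0.501 (median 0.0427). Centring on the mean of so few libraries ties their deviations to each other, so these values cannot decide what same-numbered libraries share. Whether same-numbered libraries had a culture or preparation in common was not tested. With limma-voom, NEAT1 and KCNQ1OT1 at 24 h were at -0.06 and -0.06. Depth limits KCNQ1OT1, with as few as 5 counts in a library.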

Other observations

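Away from the listed roles, some abundant messages ran against the 4 RNAs with very small amplitude. RAB7A, a GTPase of late endosomes, had r = -0.954 with their level while keeping within 324 to 386 CPM, and RPN1, a subunit of the oligosaccharyltransferase, had r = -0.946 within 322 to 380 CPM. ATP5B, the beta subunit of mitochondrial ATP synthase, had r = -0.945 within 662 to 756 CPM, and GRB2, an adaptor of receptor tyrosine kinases, had r = -0.943 within 148 to 160 CPM. Per log2 unit of the level, RAB7A moved by -0.08 and GRB2 by -0.04 log2 units. These genes were picked for their r, so the values are a description.

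The steepest followers among genes with a mean log2 CPM of at least 3 were MIR34AHG (1.02 log2 units per unit of the level), AHSA2 (0.975, 8.66 to 61.8 CPM), PABPC1L (0.951, 3.71 to 25.4 CPM), LENG8 (0.863, 38.2 to 194 CPM) and GOLGA8A (0.863, 3.59 to 20.2 CPM). GABBR1, a GABA receptor subunit, ranged from 11.8 to 49.9 CPM (0.776), and DNM3OS, a noncoding host of miR-199a and miR-214, from 4.15 to 19.6 CPM (0.760).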
